A study of Homo sapiens with 12 samples.

Results

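The comparison described here sets U937 cells treated for 24 h to degrade the RNA-binding protein IGF2BP3 against the same line treated for 6 h. U937 is a human myeloid line of monocytic type, used as a model of acute myeloid leukaemia. In the U937 BP3-mAID line IGF2BP3 carries a degron, a tag that the plant auxin analogue 5-Ph-IAA turns into a signal for destruction of the protein. The protein was not measured here, so how far it was lost at either time is not known from these data. The groups were BP3-mAID cells in 5-Ph-IAA for 24 h, BP3-mAID cells in 5-Ph-IAA for 6 h, and BP3-mAID cells left without 5-Ph-IAA (NT), with 2 polyA RNA libraries each. All 3 groups carry the tag, and the labels do not say whether the line is 1 clone, whether NT cells received a vehicle, or at which hour they were taken. No untagged cells in 5-Ph-IAA were analysed here, so the effects of protein loss, of the compound and of hours in culture cannot be told apart. The series also holds MOLM13 leukaemia cells with 2 hairpins against IGF2BP3 (shBP3-1 and shBP3-2) or a control hairpin (shNS).

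Genes were taken where the base mean, the average normalised read count over the 4 libraries of a comparison, was 50 or more in both U937 tables. That gave 11713 genes, of 23115 listed in both U937 tables and 32321 listed in any of the 4 tables of the series. Base means just inside and just outside the limit were 50.055 and 49.99. The authors' tables give each time against NT and no value per library, so the change between the times was taken as the log2 fold change at 24 h minus the log2 fold change at 6 h. A positive difference means higher at 24 h. Its standard error was rebuilt from the deposited adjusted p-values. A gene was called at an adjusted p under 0.05 (normal test, Benjamini-Hochberg over 13937 genes). The standard error counts NT 2 times and is too large, so a gene that did not pass is not shown to be unaltered. Levels are normalised reads worked out from the authors' deposited tables, one per group, in the order NT, 6 h and 24 h. They carry no spread of their own, so each result is given with the 95% interval of its difference. Nothing in the labels says that the 2 libraries of a group came from separate cultures, so the tests may measure technical spread only.

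IGF2BP3 is an oncofetal RNA-binding protein that binds mRNAs, many of them marked with N6-methyladenosine (m6A), and is known for slowing their decay. Passage from G1 into S phase rests on E2F transcription factors, which drive the genes of DNA replication, while genes for mitosis are switched on later through promoters that hold CCAAT boxes and cell cycle homology regions (CHR). Myeloid cells in addition carry a programme of granule proteins and surface receptors that changes as they mature.

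Estimated library depth was 10214912 and 11891165 reads for NT, 11640282 and 14064305 for 6 h, and 12920255 and 15176967 for 24 h. The median standard error of the difference was 0.18 on the log2 scale. It was 0.093 for genes with a base mean of 1000 or more at both times. For genes with a base mean between 50 and 100 in the 6 h comparison it was 0.44, so changes in weakly expressed genes were resolved least well. All 13 monocytic leukaemia markers were listed and 10 passed the base mean limit, with summed levels of 37599, 37350 and 34013 normalised reads in NT, at 6 h and at 24 h. MPO, TYROBP and CSF2RA were near 0. Of other cell types, the epithelial markers were listed 0 of 5 times, and the summed T cell markers stood at 1.37, 0.149 and 0.134, the fibroblast markers at 21.5, 24.6 and 7.78, and the erythroid markers at 1.03, 0.147 and 12.9 normalised reads. The B cell list reached 245, 167 and 133 normalised reads, most of it PAX5, and the endothelial list 603, 795 and 760, most of it PECAM1. The part of these genes in the results was not tested.

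The promoters of 5 genes at the centre of the cell cycle result are shown first, as a description of sequence. Whether their motifs have a part in the changes was not tested. Each is 300 bases, 250 before the RefSeq start and 50 after it (GRCh38.p14), on the strand of the gene. In the first 3, from genes that were lower at 24 h than at 6 h, capitals mark matches to the E2F motif TTTNNCGC on either strand. E2F1, which encodes a factor of that family, lies at chr20:33686336-33686635 (minus strand) and holds 4 matches, some of them overlapping. CDC6 loads the replicative helicase and lies at chr17:40287629-40287928 (plus strand), and CLSPN encodes the replication checkpoint adaptor claspin and lies at chr1:35769929-35770228 (minus strand). Each of these holds 1 match.
E2F1: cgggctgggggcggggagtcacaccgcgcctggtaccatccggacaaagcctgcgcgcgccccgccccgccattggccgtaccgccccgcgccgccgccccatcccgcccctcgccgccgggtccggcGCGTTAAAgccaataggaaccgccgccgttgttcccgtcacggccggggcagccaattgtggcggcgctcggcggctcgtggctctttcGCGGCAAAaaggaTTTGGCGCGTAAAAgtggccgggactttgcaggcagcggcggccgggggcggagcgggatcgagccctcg
CDC6: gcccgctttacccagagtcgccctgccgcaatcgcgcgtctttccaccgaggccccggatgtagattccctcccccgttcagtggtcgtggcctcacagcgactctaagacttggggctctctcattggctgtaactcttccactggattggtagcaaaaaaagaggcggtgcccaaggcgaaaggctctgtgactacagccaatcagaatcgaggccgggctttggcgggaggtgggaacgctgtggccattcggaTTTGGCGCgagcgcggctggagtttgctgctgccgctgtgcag
CLSPN: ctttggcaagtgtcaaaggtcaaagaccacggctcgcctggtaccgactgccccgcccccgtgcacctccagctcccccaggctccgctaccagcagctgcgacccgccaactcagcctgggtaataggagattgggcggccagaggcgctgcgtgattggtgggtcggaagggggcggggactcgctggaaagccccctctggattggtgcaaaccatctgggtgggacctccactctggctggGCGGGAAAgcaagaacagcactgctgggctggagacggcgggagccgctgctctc
PLK1 and CDC20, higher at 24 h than at 6 h, encode a mitotic kinase and the activator of the anaphase-promoting complex. Capitals mark the CHR motif TTTGAA and the CCAAT box, again on either strand, at chr16:23678639-23678938 for PLK1 and chr1:43358731-43359030 for CDC20 (both plus strand).
PLK1: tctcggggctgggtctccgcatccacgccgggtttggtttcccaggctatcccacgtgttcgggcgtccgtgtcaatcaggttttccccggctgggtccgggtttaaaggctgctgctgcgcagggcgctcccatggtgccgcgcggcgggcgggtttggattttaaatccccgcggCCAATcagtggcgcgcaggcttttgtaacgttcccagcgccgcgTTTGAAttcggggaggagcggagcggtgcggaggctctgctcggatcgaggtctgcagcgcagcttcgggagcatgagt
CDC20: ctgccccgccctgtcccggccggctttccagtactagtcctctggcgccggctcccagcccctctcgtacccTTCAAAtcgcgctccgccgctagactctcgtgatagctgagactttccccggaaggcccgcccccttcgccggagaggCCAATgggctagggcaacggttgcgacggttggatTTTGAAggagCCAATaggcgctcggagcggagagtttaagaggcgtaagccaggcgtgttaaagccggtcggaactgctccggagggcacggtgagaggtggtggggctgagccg

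Across the genes a RefSeq promoter was found for 8611 of 11713. The E2F motif occurred in 18 of 31 promoters of the G1/S list (58.1%) and 2 of 26 of the G2/M list (7.69%). It occurred in 11.2% of the 8611 promoters and in 6.9% of all 27305 RefSeq promoters. CHR occurred in 1 of 31 (3.23%) of the G1/S promoters and 17 of 26 (65.4%) of the G2/M promoters, against 9.43% of the 8611 and 15.4% of all. The CCAAT box was frequent in both lists, at 58.1% and 76.9%, against 36.6% of the 8611 and 35.7% of all. Over all genes called higher at 24 h, 10.8% of 1189 promoters held E2F and 12.6% held CHR. Among those called lower, 14.3% of 1298 held E2F and 8.86% held CHR, against 11.2% and 9.43% of the 8611. Matches of different motifs among the 5 searched overlapped in 51 of all promoters. A match describes letters and does not show that a factor binds there. The 2 cell cycle lists hold genes of the phases for which these motifs are known. Their shares therefore follow from the choice of lists and are no result of these data.

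Between 6 h and 24 h the transcriptome went on changing. Of the 11713 genes, 1503 were higher at 24 h than at 6 h (12.8% of those tested) and 1675 were lower (14.3%), while 8535 did not pass the test. The counts by list given below are to be read beside these shares. At least a 2-fold change was reached by 171 of the higher and 178 of the lower genes. The median difference over all genes was -0.01 on the log2 scale, and the middle 90% lay between -0.70 and 0.70. In the authors' deposited tables, 2847 of the genes were above NT at 24 h (24.3%) and 3038 below (25.9%), and at 6 h 1485 were above NT (12.7%) and 1687 below (14.4%). The difference by expression level is plotted for all genes.

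**Figure D1:**
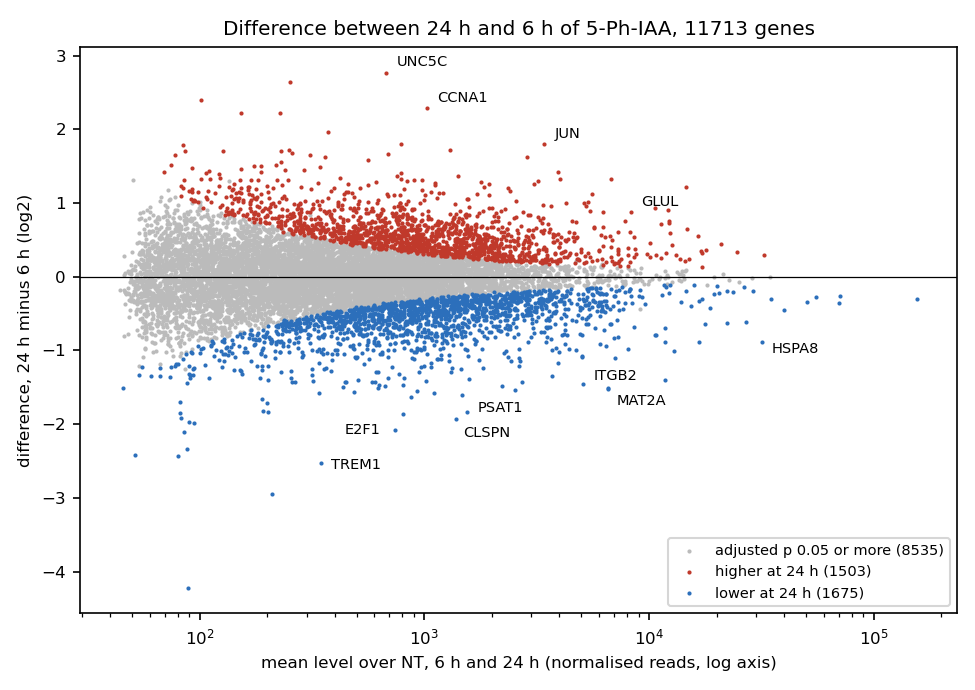
Difference between 24 h and 6 h (log2, vertical axis) against the mean level over NT, 6 h and 24 h (normalised reads, log axis) for 11713 genes, each a point. The 1503 genes called higher at 24 h are red, the 1675 called lower are blue, and the grey band of uncalled genes widens towards low levels.

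Reversals, delayed changes and returns towards NT all occurred among the called genes. In the authors' deposited tables, the 1503 genes that were higher at 24 h than at 6 h comprised 1140 above NT, 81 below it and 282 not called at 24 h, whereas at 6 h 144 were above, 490 below and 869 not called. The 1675 lower genes comprised 30 above NT, 1334 below and 311 not called at 24 h, and 506 above, 295 below and 874 not called at 6 h. Genes called on opposite sides of NT at the 2 times numbered 180 among the higher and 221 among the lower. Both times share the NT libraries, so an error in NT moves both fold changes together and leaves their difference unaltered.

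The highest difference belonged to UNC5C (ENSG00000182168.15, chr4:95162504-95549206, GENCODE v29 on GRCh38), a netrin receptor. Its level was 547 normalised reads in NT, 189.3 at 6 h and 1289 at 24 h, a difference of 2.77 (95% interval 2.42 to 3.11, difference test, adjusted p = 1.1e-52). It was thus lowest at 6 h and highest at 24 h. CCNA1, encoding cyclin A1, a cyclin of germ cells and myeloid leukaemia, followed the same course, with 613.7, 419.7 and 2055 normalised reads and a difference of 2.29 (2.01 to 2.58). TASL, an adaptor between endolysosomal Toll-like receptors and IRF5, stood at 119.3, 88.12 and 549.5, a difference of 2.64 (2.01 to 3.27), and in the authors' deposited table at 6 h it did not differ from NT (adjusted p = 0.3). The AP-1 subunit JUN climbed at both steps, with 1119, 2031 and 7079 normalised reads and a difference of 1.80 (1.58 to 2.02).

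The other genes of the 12 highest differences among called genes with a symbol were MS4A3 (described with the granule genes), NPAS1, ARHGAP31, RFX3, ARHGAP15, PNRC1, KCNA3 and FGFR1, with differences of 1.71 to 2.22. ARHGAP31 and ARHGAP15, which switch off small GTPases, stood at 1427 and 2289 normalised reads at 24 h, against 410.6 and 695.6 at 6 h. For both, the authors' deposited tables have them above NT at 24 h and below NT at 6 h. KCNA3, a potassium channel, and FGFR1, a growth factor receptor, were weakly expressed and have wide intervals, 0.94 to 2.48 and 0.84 to 2.58.

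At the other end, several immune receptors formed a pulse at 6 h. TNFRSF14, the receptor HVEM, stood at 84.83 normalised reads in NT, 480.9 at 6 h and 62.1 at 24 h, a difference of -2.95 (-3.61 to -2.29, difference test, adjusted p = 1.05e-16). TREM1, an activating receptor of monocytes and neutrophils, had 123.7, 780 and 135.7 normalised reads, a difference of -2.52 (-3.03 to -2.01). In the authors' deposited tables both were far above NT at 6 h, with log2 fold changes of 2.50 and 2.66, and neither was called at 24 h (-0.45 with adjusted p = 0.2, and 0.13 with adjusted p = 0.67). The scavenger receptor MARCO crossed NT, at 70.94, 162 and 31.94 normalised reads, as did PSD3, an exchange factor for ARF6, at 65.98, 154 and 35.69. PRDM1, the transcriptional repressor BLIMP-1, had 63.36, 164.4 and 41.85, and ZMAT3, a p53-induced RNA-binding protein, 59.77, 149.5 and 39.66 normalised reads. The pseudogene NBPF17P had the lowest difference, -4.22 (-5.56 to -2.87), with 217.7, 45.51 and 2.448 normalised reads. It has near-identical relatives in the NBPF family, so its reads are uncertain. FAM222A (difference -2.44), SPRY4 (-2.41), E2F1, CLSPN and CDC6 completed the 12.

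**Figure D2:**
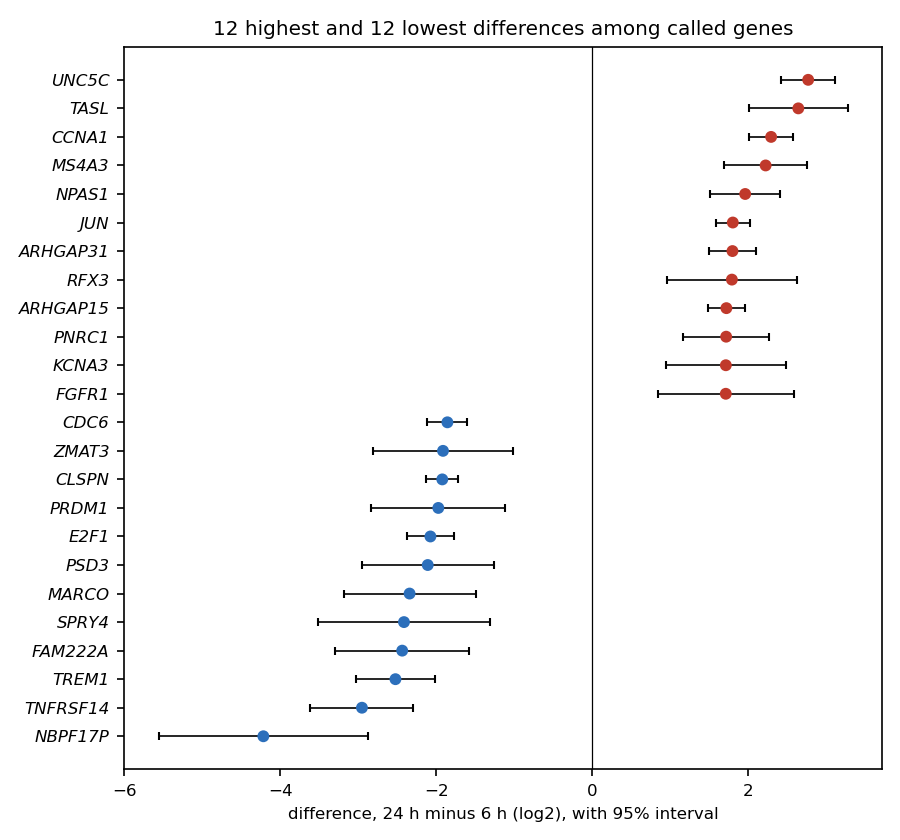
Difference between 24 h and 6 h (log2, horizontal axis) of the 12 highest and 12 lowest called genes that have a symbol, with 95% intervals as bars. UNC5C leads at 2.77 and NBPF17P ends the order at -4.22, and no interval crosses 0.

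Genes of G1/S and DNA replication had the largest share called in 1 direction among the lists with 6 or more genes. Of 35, 30 were lower at 24 h than at 6 h and 0 were higher, against 14.3% and 12.8% of all genes tested, and the median difference was -0.99 against -0.01. The median log2 fold change of the list in the authors' deposited tables was -0.88 at 24 h and 0.11 at 6 h, with 31 of 35 below NT at 24 h and 4 of 35 at 6 h, while 11 of 35 were above NT at 6 h. E2F1 (ENSG00000101412.13) had 780.3 normalised reads in NT, 1162 at 6 h and 275.7 at 24 h, a difference of -2.08 (-2.38 to -1.77, difference test, adjusted p = 2.87e-39). It was therefore above NT at the early time and below it at the late one. E2F2 behaved likewise, at 1017, 1326 and 450.9 (difference -1.56, -1.80 to -1.31), as did UNG, which removes uracil from DNA, at 1155, 1610 and 539 (-1.58, -1.80 to -1.36).

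CDC6 stood at 1016 normalised reads in NT, 1101 at 6 h and 303.8 at 24 h, a difference of -1.86 (-2.11 to -1.60). CLSPN had 1476, 2136 and 563.2 normalised reads and a difference of -1.92 (-2.13 to -1.72). The 5 genes of the list that did not pass, named after their values were seen, were CDT1 (-0.22, adjusted p = 0.0893 in the difference test), MCM7 (-0.03), RFC2 (0.04), POLD1 (0.08) and POLA1 (0.09). POLA1, the catalytic subunit of the priming polymerase, already had a log2 fold change of -0.64 at 6 h in the authors' deposited table, beside -0.54 at 24 h. The nucleotide synthesis list, which feeds replication, had 10 lower and 2 higher of 22, with a median of -0.35. RRM2, the regulated subunit of ribonucleotide reductase, had 7287, 7167 and 3802 normalised reads (difference -0.91, -1.02 to -0.81), CTPS1, which makes CTP, 1981, 2173 and 1292 (-0.75), and PRPS2 and PPAT, early enzymes of purine synthesis, differences of -0.78 and -0.73.

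Genes of G2/M and mitosis went the other way. Of 31, 21 were higher at 24 h than at 6 h and 0 were lower, against 12.8% and 14.3% of all genes, with a median difference of 0.52. In the authors' deposited tables the median log2 fold change of the list was 0.38 at 24 h, with 19 above NT and 3 below, and -0.09 at 6 h, with 0 above and 12 below. HMMR, a protein of the spindle, had 957.8 normalised reads in NT, 704 at 6 h and 1705 at 24 h, a difference of 1.28 (1.04 to 1.51). PLK1 (ENSG00000166851.15) had 1274, 1338 and 3204, a difference of 1.26 (1.06 to 1.46, difference test, adjusted p = 5.39e-34). ASPM, which acts at spindle poles, had 1187, 1121 and 2325 (1.05, 0.84 to 1.26), and CDC20 2665, 2828 and 5484 (0.96, 0.82 to 1.09). Levels of PLK1, ASPM and CDC20 at 6 h lay close to NT, and the rise was seen at the late time.

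The G2/M genes that did not pass ran between BIRC5 at -0.30 and CDC25C at 0.65. That no gene of the list was called lower was found with the standard error that counts NT 2 times and is too large. Among them CDK1, the mitotic kinase, had a difference of -0.07 and CCNA2, cyclin A2, of 0.01. Both lists concern 1 time course in bulk RNA, in which a different share of cells in a phase and a different amount of RNA per cell cannot be told apart. Histone genes, of which polyA libraries catch few, had 6 members, 2 higher and 4 lower. The linker histone H1-10 had a difference of 0.74, while H2AX and H2AZ1 had -0.89 and -0.68.

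**Figure D3:**
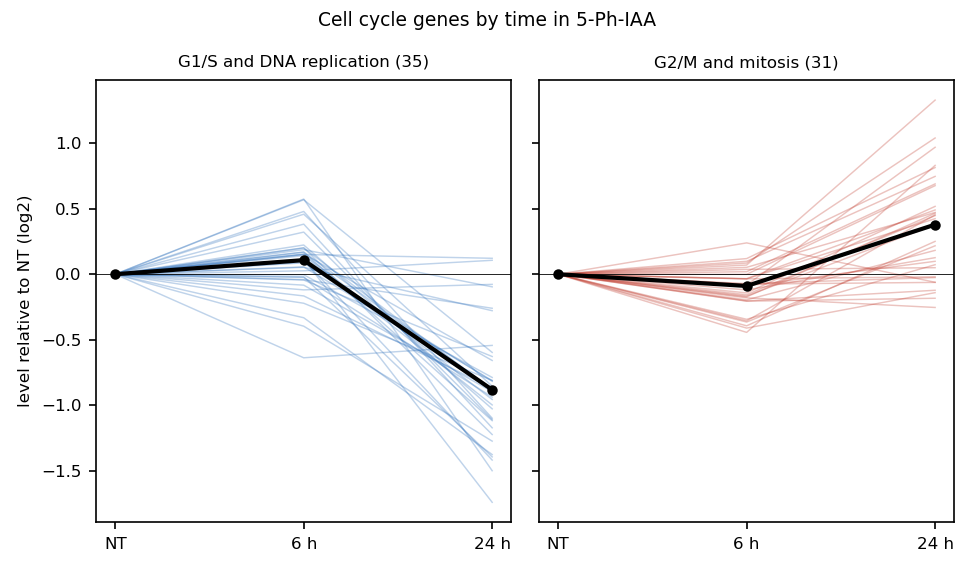
Level relative to NT (log2, vertical axis) in NT, at 6 h and at 24 h for 35 genes of G1/S and DNA replication (left) and 31 of G2/M and mitosis (right), from the authors' deposited tables. Thin lines are genes and the black line is the median, which ends at -0.88 for G1/S and 0.38 for G2/M.

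Genes of the primary granule, the store of antimicrobial proteins of promyelocytes, were below NT early and largely regained or passed it. Of 11, 9 were higher at 24 h than at 6 h and 1 was lower, with a median difference of 0.82, the highest median of the lists with 6 or more genes. Against NT, the authors' deposited tables have 6 of 11 above and 3 below at 24 h, and 0 above and 8 below at 6 h. MS4A3, a membrane protein of granulocyte and monocyte progenitors, had 250.9 normalised reads in NT, 77.07 at 6 h and 359.5 at 24 h, a difference of 2.22 (1.69 to 2.75). Lysozyme (LYZ) had 287.6, 194.5 and 601.4 (1.63, 1.19 to 2.06), the granule proteoglycan serglycin (SRGN) 9878, 7601 and 14453 (0.93, 0.83 to 1.02), and azurocidin (AZU1) 1746, 1761 and 3324 (0.92, 0.74 to 1.09). Neutrophil elastase (ELANE), named after its value was seen as the gene that did not pass, had a difference of 0.12 (adjusted p = 0.0719 in the difference test).

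Transcription factors of the myeloid lineage had 8 higher and 1 lower of 16, with a median of 0.37. IRF8, a factor of monocyte fate, had 2856, 2438 and 4289 normalised reads (difference 0.82, 0.67 to 0.96), GFI1, a transcriptional repressor that granulocyte development requires, 8081, 6602 and 10071 (0.61), and ZEB2 2671, 3504 and 5104 (0.54). The lower one was ID2, an inhibitor of basic helix-loop-helix factors, at 589.9, 785 and 419.3 (-0.90, -1.21 to -0.60). In the list of HOXA genes with MEIS1 and PBX3, a self-renewal programme of leukaemia, 6 of 12 were higher and 0 lower, with a median of 0.52. HOXA9 had 512.8, 533.2 and 1150 normalised reads (1.11, 0.80 to 1.41), HOXA11 593, 689.5 and 1244 (0.85), and HOXA13 1380, 1403 and 2308 (0.72). CDK6, the G1 kinase that the list also holds, had 3960, 3983 and 7778 (0.97, 0.84 to 1.09).

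The wider myeloid differentiation list of surface and effector genes was mixed, with 3 higher and 4 lower of 20 and a median of -0.03. Besides TREM1, the lower members included CD36, a scavenger receptor for lipids, at 903.9, 1300 and 418.4 normalised reads (-1.64, -1.88 to -1.39), and ITGB2, the beta chain of the leukocyte integrins, at 7248, 5868 and 2135 (-1.46, -1.58 to -1.34). CD36 was above NT at 6 h and below it at 24 h, whereas ITGB2 was below at both times in the authors' deposited tables (log2 fold changes of -1.76 at 24 h and -0.30 at 6 h). The 3 higher and 4 lower of 20 lay not far from the 12.8% higher and 14.3% lower of all genes. No direction of the list is read from them.

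Lysosomal genes had 16 lower and 3 higher of 38, with a median of -0.21. Above NT were 5 of the 38 at 24 h and 13 at 6 h in the authors' deposited tables. Below NT were 21 at 24 h and 10 at 6 h, so the list was mixed at 6 h. GPNMB, a glycoprotein of lysosome and melanosome membranes, had 1415, 2838 and 1208 normalised reads (-1.23, -1.41 to -1.05). PSAP, the saposin precursor, had 4300, 5241 and 2332 (-1.17), GRN, the progranulin gene, 4390, 5077 and 2509 (-1.02), and MCOLN1, a calcium channel, 121.8, 166.2 and 91.1 (-0.87). The first 3 of these were above NT at 6 h and below it at 24 h in the authors' deposited tables. NRF2 antioxidant genes had 11 lower and 1 higher of 22, with medians of -0.40 at 24 h and 0.17 at 6 h against NT in those tables. They too were mixed at 6 h, with 9 above NT and 7 below. Ferritin heavy chain (FTH1) had 2452, 4173 and 1549 normalised reads (-1.43, -1.58 to -1.28), the quinone reductase NQO1 398, 810.4 and 307.4 (-1.40, -1.74 to -1.06), and PGD of the pentose phosphate pathway 2911, 3501 and 1583 (-1.15). GCLM, of glutathione synthesis, had a difference of -0.89. In the aryl hydrocarbon receptor list, which shares NQO1, 4 of 8 were lower and 1, the receptor's partner ARNT (0.39), was higher.

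Amino acid metabolism was already lower at 6 h and went lower still in several branches. The serine, glycine and folate one-carbon list had 8 lower and 2 higher of 16, with a median of -0.52. PSAT1, an enzyme of serine synthesis, had 3570 normalised reads in NT, 851.3 at 6 h and 239.4 at 24 h, a difference of -1.83 (-2.07 to -1.59, difference test, adjusted p = 8.8e-47). PHGDH, the first enzyme of that route, had 5905, 3453 and 1735 (-0.99, -1.12 to -0.87). MAT2A, which makes the methyl donor S-adenosylmethionine, was above NT at 6 h and below it at 24 h, with 6478, 9790 and 3431 (-1.51, -1.62 to -1.41). MTHFD1L and MTHFD2, mitochondrial folate enzymes, had differences of -0.75 and -0.59.

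ATF4 targets, the amino acid stress programme, had 7 lower and 4 higher of 21, with a median of -0.14. Most of their change was present early, since the authors' deposited tables have 18 of 21 below NT at 24 h (median -1.24) and 19 of 21 at 6 h (median -0.98). ATF4 itself had 4875, 2278 and 2067 normalised reads and a difference of -0.14 that did not pass (-0.28 to -0.00, adjusted p = 0.141 in the difference test), a gene named after its value was seen. Transporters had 6 lower and 2 higher of 13, led by SLC7A5, which imports leucine, at 7269, 4602 and 2310 (-0.99, -1.11 to -0.88), SLC7A1 for arginine (-0.70) and SLC1A5 for glutamine (-0.58), while the neutral amino acid transporter SLC43A1 was higher (0.64). Cytosolic aminoacyl-tRNA synthetases had 12 lower and 5 higher of 20 and a median of -0.34. AARS1 had 3968, 2276 and 1034 normalised reads (-1.14), WARS1 had a difference of -1.04 and YARS1 of -0.75, whereas FARSA had 2321, 2081 and 3835 (0.88, 0.72 to 1.04). In the glutamine, asparagine and proline list 6 were lower and 1 higher of 14. The higher one was GLUL, glutamine synthetase, at 7803, 6060 and 11155 normalised reads (0.88, 0.78 to 0.98), and the lower ones included OAT (-0.80) and ARG2 (-0.55).

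Sterol genes had the same median distance from NT at both times. The cholesterol list had 5 higher and 3 lower of 23, beside 12.8% higher and 14.3% lower of all genes, and a median difference of 0.11. Below NT were 20 of 23 at 24 h and 19 of 23 at 6 h in the authors' deposited tables, with a median log2 fold change of -1.22 at each time. Among the higher ones, squalene synthase (FDFT1) had 4783 normalised reads in NT, 1239 at 6 h and 1792 at 24 h (0.53, 0.39 to 0.68). DHCR7, a late reductase of the pathway, fell further, at 2611, 1261 and 792.6 (-0.67). HMGCS1 and INSIG1, named after their values were seen, had differences of -0.03 (-0.29 to 0.24) and 0.28 (0.03 to 0.54, adjusted p = 0.108 in the difference test). The sterol element searched as TCACNCCAC was found in 1 of 17 promoters of the list (5.88%), against 1.05% of the 8611 promoters and 1.15% of all.

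Fatty acid genes had 5 lower and 1 higher of 13, with a median of -0.11. The desaturases FADS2 and FADS1 had 1712 and 1550 normalised reads at 24 h, against 2408 and 1992 at 6 h (differences -0.49 and -0.36), fatty acid synthase (FASN) 3520 against 4809 (-0.45) and ACLY 2327 against 3066 (-0.40). Each was below NT at both times in the authors' deposited tables. The LXR and oxysterol list had 2 higher and 1 lower of 11, not far from the 12.8% higher and 14.3% lower of all genes. PLIN2, which coats lipid droplets, had 416.6, 721.7 and 1792 normalised reads (1.31, 1.02 to 1.60), and GPR183, an oxysterol receptor, 37.8, 274.6 and 114.4 (-1.26, -2.05 to -0.48). NR1H2, which encodes LXR beta, had a difference of 0.39.

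Many genes of the endoplasmic reticulum were lower at 24 h than at 6 h. Of 22 chaperones and unfolded protein response genes, 10 were lower and 2 higher at 24 h than at 6 h, with a median of -0.28. PDIA4 had 2994, 1574 and 717.9 normalised reads (-1.13, -1.31 to -0.95), HSP90B1 8529, 4183 and 2427 (-0.79), PDIA3 9805, 5631 and 3407 (-0.72) and MANF 783.5, 466.7 and 287.6 (-0.70). Calreticulin (CALR) differed from these, with 22066, 11220 and 16464 (0.55, 0.47 to 0.63). Cytosolic and mitochondrial chaperones had 6 lower and 3 higher of 17. HSPA8, the constitutive HSC70, had a peak at 6 h, with 26227, 44817 and 24244 normalised reads (-0.89, -0.97 to -0.81). The small chaperone HSPB1 and the co-chaperone BAG3 were higher by 0.73 and 0.84, and mitochondrial HSPA9 was lower by a difference of -0.48.

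**Figure D4:**
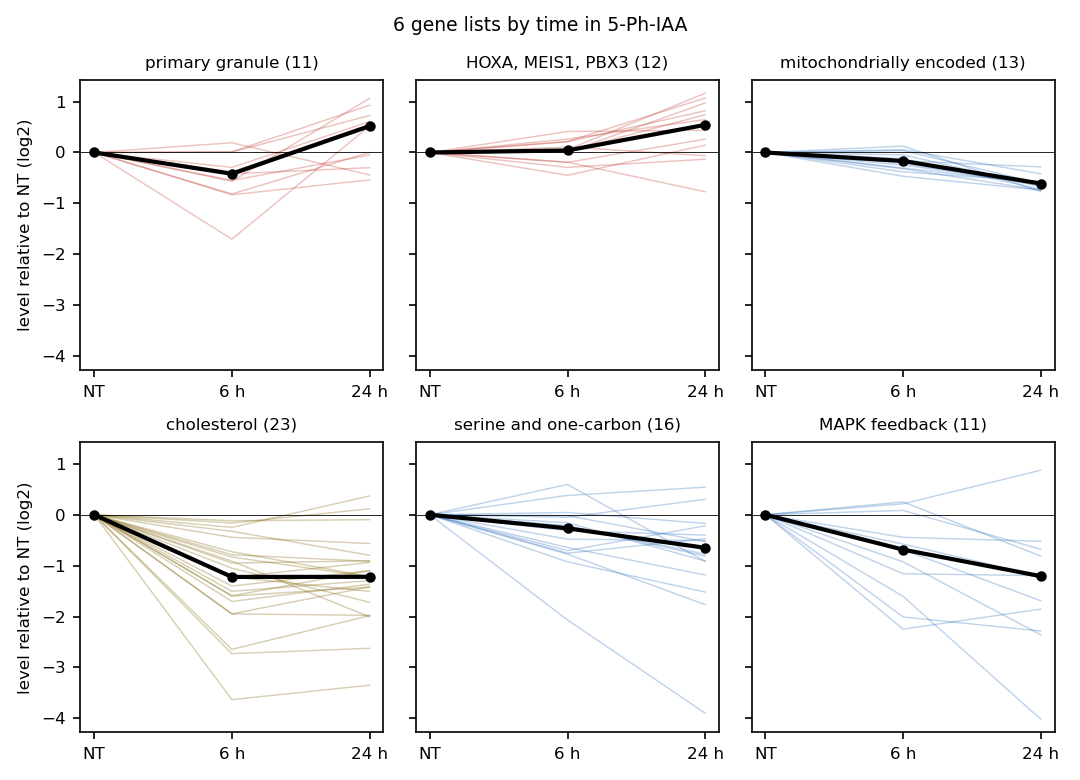
Level relative to NT (log2, vertical axis) in NT, at 6 h and at 24 h for 6 gene lists, from the authors' deposited tables. Thin lines are genes and black lines medians, which dip and recover for the primary granule, stay at -1.22 for cholesterol, and go from step to step lower for mitochondrially encoded, serine and MAPK feedback genes.

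Feedback regulators and ETS factors that MAPK signalling induces had 5 lower and 0 higher of 11 and a median of -0.63. SPRY4 had 111.6, 36.72 and 6.889 normalised reads, a difference of -2.41 (-3.51 to -1.31, difference test, adjusted p = 0.000177). The ERK phosphatase DUSP6 had 784, 412.9 and 152.8 (-1.43, -1.77 to -1.10), DUSP4 337.6, 209.9 and 104.6 (-1.01) and DUSP2 146.2, 174.1 and 83.26 (-1.06). Among those that did not pass, ETV5, named after its value was seen, had log2 fold changes of -2.29 at 24 h and -2.01 at 6 h in the authors' deposited tables. AP-1 and immediate early genes had 5 higher and 1 lower of 15. Beside JUN, JUND had 658, 552.8 and 1071 (0.95) and FOSL2 490.1, 517 and 784.7 (0.60), while KLF10 was lower (-0.60).

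In the NF-kB feedback list 4 of 16 were higher and 1 lower, the higher being the subunits RELA (560.6, 781.4 and 1276 normalised reads, 0.71), REL (0.59) and NFKB2 (0.59) and the inhibitor NFKBIB (0.54). Chemokines and IL-1 cytokines had only 4 of 21 genes above the base mean limit, and their differences, -0.28 to 0.13, did not pass. Interferon response genes had 4 higher and 2 lower of 21, not far from the 12.8% higher and 14.3% lower of all genes. No direction of the list is read from them. STAT2 and HERC5 had differences of 0.67 and 0.79, and IFI6 and OAS3 of -1.06 and -0.66. In the MYC and MAX network 3 were higher and 2 lower of 11. MYC had 3916, 3630 and 2781 normalised reads (-0.38, -0.51 to -0.26), and its partner-competing relatives MXD4 and MXI1 were higher by 0.70 and 0.45.

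Mitochondrially encoded transcripts had 10 lower and 0 higher of 13, with a median of -0.44, and the medians against NT in the authors' deposited tables were -0.61 at 24 h and -0.17 at 6 h. MT-ND1 had 18777, 20486 and 11042 normalised reads (-0.89, -1.12 to -0.67), MT-CYB 19959, 20473 and 13076 (-0.65), MT-ND2 25677, 24874 and 16136 (-0.62) and MT-ND5 32190, 29678 and 19458 (-0.61). Nuclear-encoded respiratory chain genes, whose products join these in the same complexes, had 6 higher and 2 lower of 49 with a median of 0.03. The 6 of 49 lay near the 12.8% higher of all genes, of which 14.3% were lower. Mitochondrial ribosomal proteins had 14 higher and 5 lower of 47 with a median of 0.18. MRPS30 had 819.7, 835 and 1753 normalised reads (1.07, 0.83 to 1.31) and MRPS18A 498.3, 673.9 and 1378 (1.03). Among respiratory genes NDUFS3 was higher by 0.45 and cytochrome c (CYCS) lower by a difference of -0.39. The nuclear and mitochondrial subunits thus differed in count and median, and the difference between the lists was not tested.

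Cytosolic ribosomal proteins had 13 lower and 4 higher of 71 with a median of -0.06, and the lowest difference was that of RPL12 at -0.41. Ribosome biogenesis genes had 14 lower and 2 higher of 36, with a median of -0.21. UBTF, the RNA polymerase I factor, had 2546, 3376 and 2324 normalised reads (-0.54), NOP56 4669, 4856 and 3369 (-0.53), and UTP20 a difference of -0.43, while NOB1, which finishes the small subunit RNA, was higher at 890.4, 1088 and 1730 (0.67). In snoRNA host genes 3 were lower and 2 higher of 18, near the 14.3% lower and 12.8% higher of all genes. SNHG8 had a difference of 0.91 and SNHG12 of -0.82.

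IGF2BP3 mRNA itself is not a readout of the protein, which the degron is built to remove. It stood at 480.1 normalised reads in NT, 399 at 6 h and 534.3 at 24 h, a difference of 0.42 that did not pass (0.08 to 0.76, difference test, adjusted p = 0.0644). With the shared NT error removed from the standard error, its adjusted p was 0.00261. IGF2BP2, its relative, had 379.8, 211.1 and 239 (0.18, -0.24 to 0.60), and in the authors' deposited tables it was below NT at both times, by log2 fold changes of -0.67 at 24 h and -0.85 at 6 h. IGF2BP1 was not analysed here. Other genes of m6A had 5 higher and 1 lower of 16, with a median of 0.20. The writer partner CBLL1 had 515.4, 565.2 and 936.1 normalised reads (0.73), the methyltransferase METTL16 678.7, 698.6 and 1075 (0.62) and the readers YTHDC1 and YTHDC2 differences of 0.56 and 0.37.

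Splicing factors had 13 lower and 6 higher of 29. SRSF2 had 4957, 6875 and 3252 normalised reads (-1.08, -1.20 to -0.96), TRA2B 3800, 6256 and 3157 (-0.99) and SRSF3 6023, 8788 and 4588 (-0.94), so each peaked at 6 h. HNRNPL ran against them with 3142, 1809 and 4333 (1.26, 1.11 to 1.41). Autophagy genes had 11 higher and 0 lower of 29, although the median was only 0.03. UVRAG, of the class III PI3-kinase complex, had a difference of 0.98, and the cargo receptors TAX1BP1, NBR1 and CALCOCO2 had 0.89, 0.74 and 0.55. TAX1BP1 stood at 4399, 4176 and 7762 normalised reads.

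In the proteasome 8 were higher and 3 lower of 31, with PSMB6, PSMB7, PSMC3 and PSMD4 at differences of 0.40 to 0.56. The ubiquitin and degron machinery had 3 higher and 4 lower of 13, including the activating enzyme UBA1 (6610, 4712 and 7011 normalised reads, 0.57), the cullin partner RBX1 (0.53) and the F-box protein SKP2 (-0.76). Actin cytoskeleton genes had 10 higher and 6 lower of 26, with MYL6 and LCP1 higher (0.65 and 0.45) and TMSB10 and MYL12A lower (-0.55 and -0.54). Antigen presentation had 4 higher and 3 lower of 14, with HLA-E at 948, 1154 and 1821 normalised reads (0.66) and CD74 at 410.1, 614.5 and 298.1 (-1.04). HLA-DRB1 (-0.97) is polymorphic and has close relatives, so its read count is uncertain.

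The p53 target, BCL2 family and glycolysis lists were also mixed in direction, beside 12.8% higher and 14.3% lower over all genes. p53 targets had 2 higher and 3 lower of 19, near those shares, with PLK3 at -0.98 and AEN at -0.87. SESN2, which the list of ATF4 targets also holds, had 768.6, 105.5 and 152.1 normalised reads (0.53). BCL2 family genes had 4 higher and 5 lower of 17, among them PMAIP1 (0.66), BCL2A1 (-0.89), BMF (-0.76) and BID (-0.59). Glycolysis and hypoxia genes had 6 higher and 7 lower of 31, with the oxygen sensor EGLN1 at 1.06 and the demethylase KDM3A at 0.77, and with ALDOC at -1.15 and FUT11 at -0.85.

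**Figure D5:**
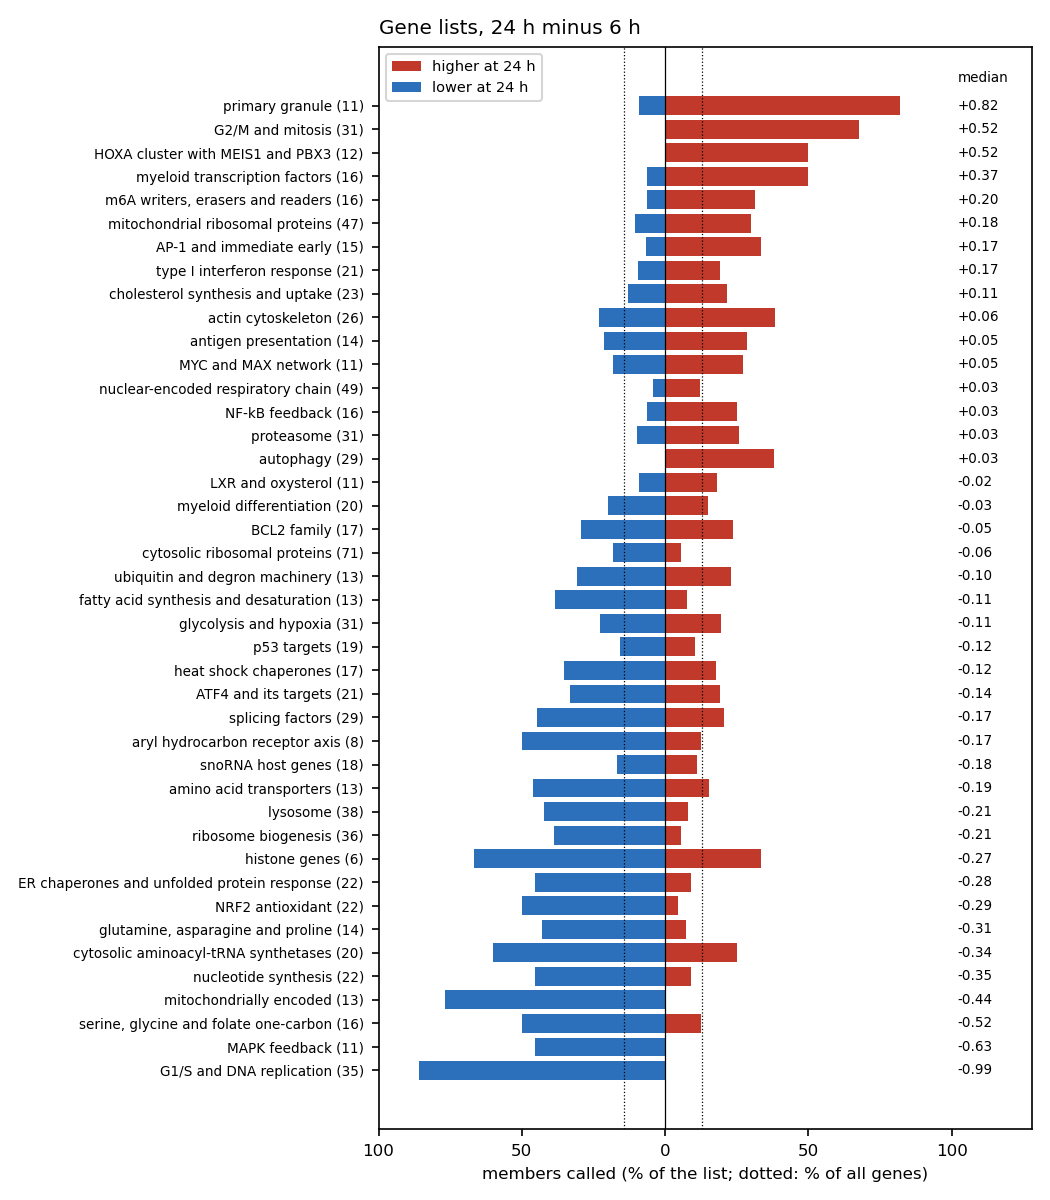
Share of each list (% of its genes) called higher (red, right) or lower (blue, left) at 24 h than at 6 h, ordered by median difference (log2, printed at the right), for lists with 6 or more genes, whose number stands in brackets. Dotted lines mark 12.8% higher and 14.3% lower over all genes. Primary granule (0.82) and G2/M (0.52) stand at the top and G1/S (-0.99) at the bottom.

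The most abundant called genes had smaller differences than the genes at either end of the order. Among the lower ones MT-CO1, MT-CO3, MT-ND4, EEF1A1, ACTB and MT-CO2 had differences of -0.45 to -0.26, and among the higher ones ENO1, FLNA, CALR, LCP1, MSN and PRKDC had 0.30 to 0.55. The leukocyte actin regulators LCP1 and MSN were still below NT at 24 h in the authors' deposited tables, with log2 fold changes of -0.51 and -0.52, having been at -0.96 and -0.86 at 6 h.

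Gene classes and sizes were compared as a description. Of 10006 protein-coding genes 14% were higher and 15.6% lower, and of 1417 long non-coding RNAs 6.35% and 6.7%. The median level in NT was 894 normalised reads for the higher protein-coding genes, 1155 for the lower and 521 for all, so called genes were more abundant and measured with less error. The median length of the longest annotated transcript was 4202, 3932 and 3787 bases, and its median GC content 49.7%, 46.8% and 48.0%, for the same 3 sets.

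The MOLM13 tables share no library with U937 and give the same genes after hairpin knockdown. Genes lower at 24 h than at 6 h in U937 had a median log2 fold change of -0.13 with shBP3-1 (1569 genes) and -0.40 with shBP3-2 (1599 genes), against 0.00 and -0.09 over all genes listed, and 37.6% and 57.0% of them were called lower there, against 21% and 35.8% of all, in the authors' deposited tables. Genes higher at 24 h had medians of 0.06 (1407 genes) and -0.01 (1443 genes) in the authors' deposited tables, with 26.6% and 32.2% called higher, against 22% and 25% of all, and 20.5% and 35.7% called lower. The G1/S genes E2F1, CLSPN and CDC6 were lower with both hairpins, E2F1 by log2 fold changes of -1.07 and -2.67 in the authors' deposited tables. PLK1 and HMMR, higher at 24 h in U937, were lower in MOLM13, PLK1 by -1.01 and -2.90 and HMMR by -0.65 and -2.61 in those tables. HOXA9 was likewise lower there (-0.36 and -1.14). CCNA1, JUN, LYZ and MS4A3 were higher with both hairpins, CCNA1 by 1.89 and 2.20 and JUN by 1.60 and 2.44 in the authors' deposited tables. Of the receptors that peaked at 6 h, TNFRSF14 was higher with both hairpins (2.02 and 1.95), as were MARCO (2.19 and 3.21) and CD36 (1.25 and 1.36), by log2 fold changes in the authors' deposited tables. TREM1 was not called with shBP3-1 (0.69, adjusted p = 0.208) and was higher with shBP3-2 (2.45) in the authors' deposited tables. The lines differ in the means and the duration of the loss, and no difference between them was tested.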

How the data were processed

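The series holds 6 U937 BP3-mAID libraries, given as polyA RNA in the labels, and 6 MOLM13 libraries, given there as total RNA; the labels' protocol describes mRNA capture without setting the lines apart. Per the submitters' processing notes the tools were cutadapt 4.1, HISAT2 2.1.1, HTSeq 2.0.2 and DESeq2 with build hg38; annotation and strand setting are not given in the sources used here. The authors deposited, per comparison, a base mean (a signal: mean normalised read count), the log2 fold change and its adjusted p-value. The deposited tables hold no value per library, so edgeR was not run and the planned fallback was used.

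Each table's Benjamini-Hochberg adjustment was undone (ties at their highest rank, giving an upper limit), and the standard error was the log2 fold change over the normal quantile. Deposited zeros (18 genes: 16 at 24 h, 4 at 6 h) were given the smallest value the calculation holds, 1e-307. The errors of both times were added in squares, which counts NT 2 times and makes the error too large. The NT level implied by the 2 tables differed by a constant log2 ratio (median 0.0745, SD 0.00129), so both use the same NT libraries, and levels are on the 6 h table's scale. Depth was estimated from the smallest repeated values. The procedure was tried on simulated counts with a single spread for all genes, known to the test. How it behaves with the varied spread of real genes was not tested. Python 3.11.15, SciPy 1.17.1 and pandas 2.3.3 were used; GENCODE v29 gave positions for 11615 genes.

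The text names the IGF2BP genes, the 12 called genes at either end of the difference, up to 4 called genes per list by size of difference, the 6 most abundant called genes per direction and the 6 per direction with opposite, called changes at the 2 times. Members and the 44 lists were chosen with earlier results of these data known, so list counts are descriptions and no list was tested. Some genes that this rule selects are not reported here. Alternatives were the standard error, the base mean limit, the adjustment, centring, the threshold and a minimum fold.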

Additional observations from a re-analysis of the deposited data

Results flagged for a closer look

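A difference between the 2 times with called changes on opposite sides of NT singled out 12 genes, 6 per direction, by size. The difference itself was tested in each (normal test, adjusted p under 0.05), and the cause was not tested. Higher than NT at 24 h and lower at 6 h, in the authors' deposited tables, were UNC5C (difference 2.77), CCNA1 (2.29), MS4A3 (2.22), ARHGAP31 (1.80), ARHGAP15 (1.72) and STXBP5L (1.68). STXBP5L, a relative of the vesicle fusion regulator tomosyn, had 231.7 normalised reads in NT, 128.1 at 6 h and 411.7 at 24 h. Lower than NT at 24 h and higher at 6 h were MARCO (-2.34), PSD3 (-2.11), E2F1 (-2.08), CLSPN (-1.92), PDE4B (-1.65) and CD36 (-1.64). PDE4B, a phosphodiesterase that degrades cyclic AMP, had 155.5 normalised reads in NT, 313.5 at 6 h and 99.61 at 24 h.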

How the results depend on the processing

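The 1503 higher and 1675 lower genes became 2425 and 2619 when the NT error shared by both tables was removed from the standard error, and 2448 and 2642 when this was joined to a standard error from the trend over genes of similar base mean; a smaller standard error is the construction of both. A minimum difference of 1 on the log2 scale left 171 and 178. The trend alone gave 1524 and 1701, adjustment over the 11713 genes only 1559 and 1725, genes with an adjusted p of 0 left out (an alternative chosen after seeing the data) 1501 and 1659, centring on the median gene 1547 and 1636, base mean limits of 10 and 100 gave 1522 and 1701, and 1468 and 1638, no limit 1522 and 1701, and an adjusted p under 0.01 1069 and 1248. Of the 3178 called genes, 3139 to 3178 were called in the same direction under the 6 alternatives of standard error, adjustment, centring and left-out genes. Under those 6 alternatives, IGF2BP3 alone among the 192 genes chosen by the naming rule changed its side of the threshold. It did so under both settings that remove the shared error, and none of the 192 reversed. Where adjusted p-values of 0 were dropped, 181 of the 192 were left. Genes named as not passing, other than the IGF2BP genes, are outside the 192 and were not followed here. Some of them may pass with the shared error removed. The other alternatives were not run gene by gene, and a named gene with an adjusted p between 0.01 and 0.05 loses its call at 0.01. Among 88 counts by list and direction, 74 moved by over 1.5 times with the minimum difference of 1, 22 at 0.01, 20 with the shared error removed and 21 when the trend was joined to that.

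Leaving out each replicate was not run, because the tables hold no value per library. No paired analysis was possible because the deposited tables hold no columns per replicate. Depth limits weak genes, whose median standard error was 0.44 between base means of 50 and 100 in the 6 h comparison. A gene that did not pass there is not shown to be unaltered.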
